A study of Mus musculus with 9 samples.

Results

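Immediate early genes are switched on within minutes of a growth factor, a stress or a loss of tissue contact, without new protein synthesis. The set described here holds 34 immediate early and dissociation response genes. Some encode transcription factors of the AP-1, Egr, Nr4a, Klf, Myc and Cebp families. Others encode phosphatases and other proteins that switch the response off, or small early response proteins. The members were chosen by gene symbol, as exact matches to a list of 34 symbols, and all 34 were measured among 18193 genes on the arrays. Enzymatic dissociation and sorting are known to induce many of these genes.

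The arrays measured RNA of podocytes, the epithelial cells of the glomerular filter, from 5 diabetic OVE26 mice and 4 normal mice of the FVB strain, at an age of 3 to 4 months. OVE26 mice carry a transgene that damages the insulin-producing beta cells and serve as a model of early type 1 diabetes; the labels give these mice as OVE-GFP on the FVB strain, and the control mice as wild type FVB. The series text says that mice with eGFP in podocytes were made on FVB and bred to OVE26. The same sorting of fluorescent cells is described for both groups, but the labels of the FVB mice name no GFP transgene, and the sources used here do not give the promoter that drives it. Both groups went through the same steps: magnetic bead perfusion, collagenase digestion of the kidney, trypsin digestion of isolated glomeruli at incubator temperature, mechanical dispersion and fluorescence sorting. No sample that skipped dissociation was analysed here, so no member has a value without it and its part in the levels was not tested.

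Markers of podocytes were bright in both groups. The 17 podocyte markers measured had mean log2 intensities from 9.20 to 13.0, among them the slit diaphragm gene Nphs1 at 11.40 ± 0.29 (SD, n = 5) on OVE26 arrays against 11.90 ± 0.23 (SD, n = 4) on FVB arrays. Some markers of other cells were as bright, such as Umod of the loop (11.16 and 10.94) and mesangial Itga8 (11.37 and 11.62). The median was 10.7 over the podocyte list and 8.32 over glomerular endothelial markers. It was 8.14 over proximal tubule and 6.92 over loop, distal tubule and collecting duct markers. Which cells gave the members' values was not tested. Median log2 intensity per array ran from 5.07 to 5.15, and the 25th percentile averaged 3.31. None of the 34 members had a group mean below that percentile, and 32 lay above the 40th percentile of genes (5.03) that served as the filter on dim genes in an alternative fit; Fosl1 and Dusp2 did not. OVE26 2 stood apart from the other arrays in its proximal tubule markers, with a score of -1.84 (mean log2 intensity of the list relative to the 9-array mean) against -0.14 to 0.67 on the other 8. All values below are log2 intensities, differences are OVE26 minus FVB on that scale, and in RNA from sorted cells fewer cells of a type and less RNA per cell cannot be told apart.

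In the resting cell these genes are held ready for signals that act on factors already present. Mitogen-activated protein kinases phosphorylate ternary complex factors that sit with serum response factor on the CArG box, and kinases of the cAMP and stress pathways phosphorylate CREB on the cyclic AMP response element, TGACGTCA. Fos and Jun proteins made in this first wave then bind the AP-1 site, TGANTCA, and cytokine signals reach genes such as Socs3 through STAT sites, TTCNNNGAA. Of the 12 members that varied together with Fos across the arrays (values below), 5 hold at least 1 of these motifs. Fosb, Jun, Klf2 and Atf3 hold none, and Egr1, Ier2 and Cebpd had no promoter sequence to search. Outside the 12, Dusp5 and Maff hold a motif, and Fos itself and the other members searched hold none. The share of all genes with at least 1 of these motifs was not counted. Whether the motifs go with the variation with Fos was not tested. Of the 5, Btg2 holds TGACGTCA as Dusp1 does, and the promoters of the other 4 are shown as examples. Each is the 250 bases before a RefSeq transcript start (GRCm38.p6), 5′ to 3′, and capitals mark the motif: a CArG box in Egr2, a CArG box and then a STAT match in Zfp36, TGACGTCA in Dusp1 and a STAT match in Socs3.
Egr2, chr10:67537619-67537868, plus strand: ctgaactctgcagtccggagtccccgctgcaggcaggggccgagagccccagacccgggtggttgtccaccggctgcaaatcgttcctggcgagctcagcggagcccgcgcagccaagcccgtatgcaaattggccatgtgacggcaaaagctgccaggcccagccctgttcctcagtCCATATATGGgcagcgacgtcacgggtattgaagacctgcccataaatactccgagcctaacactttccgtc
Zfp36, chr7:28379229-28379478, minus strand: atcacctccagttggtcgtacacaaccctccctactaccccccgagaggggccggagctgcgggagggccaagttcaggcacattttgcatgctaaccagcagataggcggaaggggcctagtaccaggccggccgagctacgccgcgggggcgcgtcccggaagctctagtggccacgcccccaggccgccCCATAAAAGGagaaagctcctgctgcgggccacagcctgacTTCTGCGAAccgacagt
Dusp1, chr17:26508473-26508722, minus strand: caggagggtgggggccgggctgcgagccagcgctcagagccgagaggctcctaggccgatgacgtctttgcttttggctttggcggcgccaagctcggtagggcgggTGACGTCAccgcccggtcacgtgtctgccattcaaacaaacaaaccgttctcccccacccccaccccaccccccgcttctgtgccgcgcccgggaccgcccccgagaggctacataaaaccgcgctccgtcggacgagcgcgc
Socs3, chr11:117969367-117969616, minus strand: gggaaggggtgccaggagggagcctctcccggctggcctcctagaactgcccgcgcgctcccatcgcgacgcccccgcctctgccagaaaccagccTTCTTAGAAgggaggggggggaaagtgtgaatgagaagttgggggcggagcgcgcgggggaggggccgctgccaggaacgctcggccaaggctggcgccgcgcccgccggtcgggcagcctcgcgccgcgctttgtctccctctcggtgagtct

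The motif search covered both strands of these 250-base windows and was run over all RefSeq promoters given. Of the 34 members 28 were matched by symbol, and Fosl1, Egr1, Egr3, Myc, Cebpd and Ier2 had no promoter among those given. A CArG box was found in 3 of the 28 (Egr2, Zfp36 and Dusp5), against 1.62% of 27025 genes with a window. TGACGTCA was found in 3 (Btg2, Dusp1 and Maff; 1.77% of all genes), a STAT match in 2 (Socs3 and Zfp36; 8.13% of all genes) and TGANTCA in 0 (7.82% of all genes). Egr2 has 5 annotated windows, some of which overlap, and 4 of them hold a CArG box. A match here is a string of letters and no measurement of binding.

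No member passed the test across all genes. By limma, 0 of the 34 members reached an adjusted p under 0.05, where 0.605% of all genes were called, 0.473% higher and 0.132% lower. At an unadjusted p under 0.05 the count was 17 (15.1% of all genes), of which 13 were higher in OVE26 (9.03% of all genes) and 4 lower (6.07% of all genes). The mean was higher in OVE26 for 26 members (52.6% of all genes). The median difference over the members was 0.35, against 0.01 over all genes tested. A difference of at least 2-fold was seen in 6 members with the higher mean in OVE26 (Egr2, Myc, Socs3, Cebpd, Egr1 and Ier2; 2.41% of all genes) and in 1 with the lower mean (Nr4a3; 0.456% of all genes). Without FVB 4 the unadjusted count was 11 (12.4% of all genes), and without OVE26 4 the median was 0.22. Without OVE26 2, the array that stood apart, the count was 20 (16.2% of all genes) and the median 0.46. The numbers of higher and lower calls over all genes were 86 and 24; they became 67 and 52 with arrays centred on their medians and 56 and 42 with arrays centred on ribosomal protein genes, which moved the median of all genes to -0.09 and -0.10. With either of those centrings 12 members had an unadjusted p under 0.05, against 17.2% and 17.8% of all genes. Of these members 8 were higher and 4 lower, and the shares of all genes by direction were not counted.

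**Figure D1:**
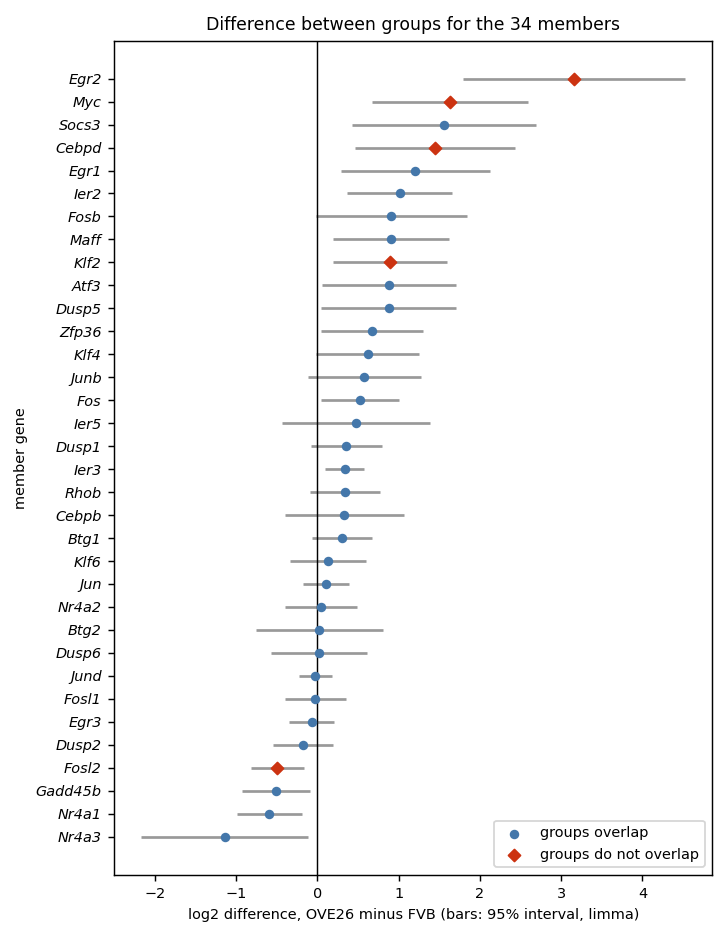
Log2 difference between OVE26 and FVB arrays (x axis) for each of the 34 members (y axis), with 95% intervals from limma; diamonds mark members whose groups do not overlap. Egr2 lies at 3.16 and Nr4a3 at -1.14, and the 5 diamonds are Egr2, Myc, Cebpd, Klf2 and Fosl2.

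In 5 members the groups did not overlap, against 6.26% of all genes. Every OVE26 array lay above every FVB array for Egr2, Myc, Cebpd and Klf2, an arrangement found in 3.64% of all genes. Every OVE26 array lay below every FVB array for Fosl2, which was so for 2.62% of all genes. Without FVB 2 or without OVE26 1 the first count became 7, and the share of all genes also increased, to 6.63% and 4.99%. The second became 2 without FVB 2, FVB 3, OVE26 2 or OVE26 4, with 5.16%, 3.31%, 3.94% and 3.74% of all genes.

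The Egr genes encode zinc finger factors that bind GC-rich promoters, and Egr2 is the member with the smallest p. Its probe set read 7.40, 7.77, 9.19, 9.81 and 8.23 on OVE26 arrays 1 to 5, and 5.70, 4.59, 6.80 and 4.19 on FVB arrays 1 to 4. The OVE26 values were thus all above the FVB values, with OVE26 3 and OVE26 4 at the top and FVB 2 and FVB 4 at the bottom. The means were 8.48 ± 1.00 (SD, n = 5) and 5.32 ± 1.18 (SD, n = 4), a difference of 3.16 with a 95% interval of 1.79 to 4.53, or 8.94-fold (limma, adjusted p = 0.0542). The second Egr2 probe set differed by 2.75. Over the other settings in which it was fitted, the adjusted p ran from 0.0370 to 0.380, and without single arrays from 0.0558 to 0.156. It passed the threshold with array weights (0.0370), with dim genes left out (0.0414) and with an intensity trend and robust variance (0.0435).

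Egr1, the best known of the family, is induced by injury and stretch as well as by growth factors. It read 10.82, 10.59, 12.00, 12.23 and 11.29 on OVE26 arrays 1 to 5, and 10.47, 10.18, 10.86 and 9.20 on FVB arrays 1 to 4. OVE26 3, 4 and 5 lay above all FVB arrays, while OVE26 1 and 2 lay below FVB 3. The difference was 1.21 with a 95% interval of 0.30 to 2.12 (adjusted p = 0.200). Egr3, a close relative, was at 5.80 ± 0.21 (SD, n = 5) and 5.87 ± 0.09 (SD, n = 4), a difference of -0.07 (adjusted p = 0.864), and its second, dimmer probe set differed by 0.68.

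Nr4a1, Nr4a2 and Nr4a3 are orphan nuclear receptors of the first wave. Nr4a1 read 9.54, 10.46, 9.98, 9.68 and 10.22 on OVE26 arrays 1 to 5, and 10.62, 10.55, 10.45 and 10.64 on FVB arrays 1 to 4. All OVE26 arrays except OVE26 2, which was level with FVB 3, lay below the FVB arrays. The difference was -0.59 (95% interval -0.99 to -0.18; adjusted p = 0.162). Nr4a3 differed by -1.14 (adjusted p = 0.281), with means of 8.20 ± 0.85 (SD, n = 5) against 9.33 ± 0.74 (SD, n = 4), and its 2 other probe sets were lower in OVE26 too. Nr4a2 differed by 0.04 (adjusted p = 0.954), and none of its 5 other probe sets shared that sign. Egr1 and Egr2 thus had higher means and Nr4a1 and Nr4a3 lower means in OVE26, in each alternative setting fitted.

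**Figure D2:**
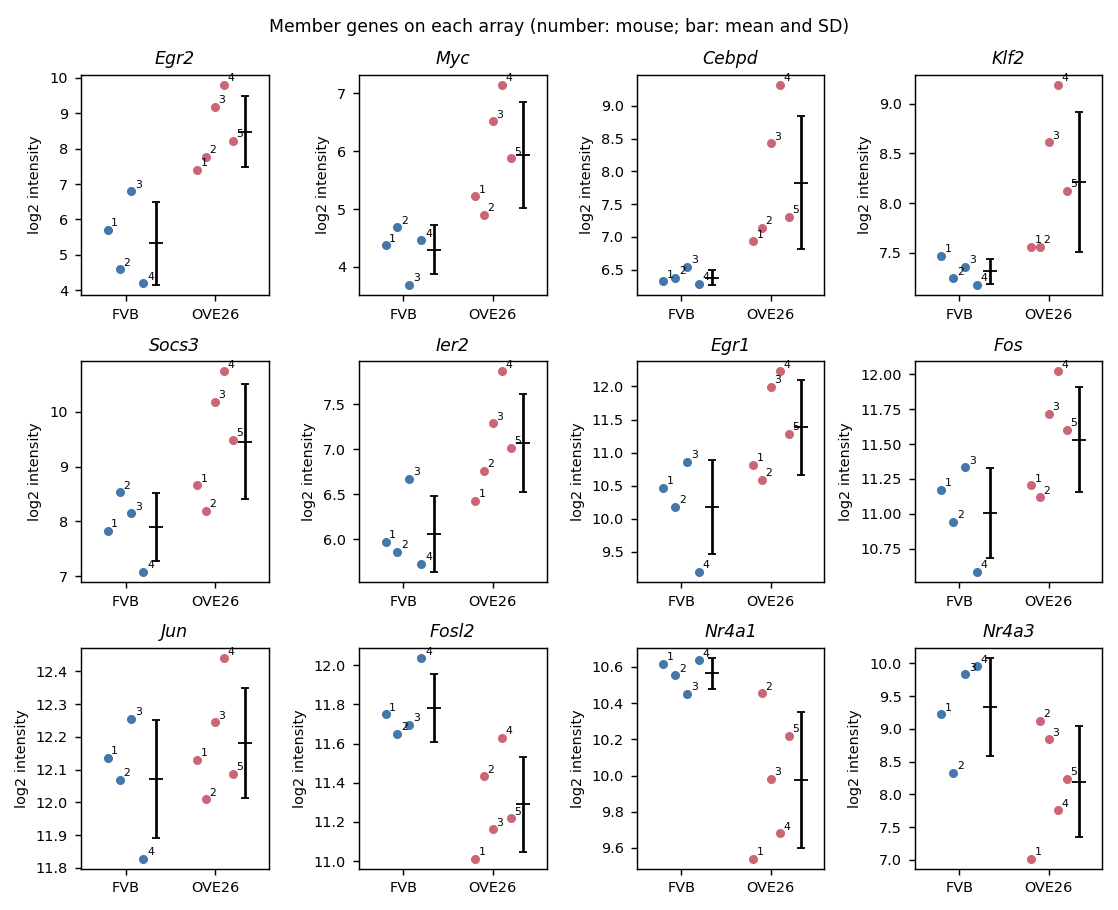
Log2 intensity (y axis) of 12 members on each array of the FVB (blue) and OVE26 (red) groups; numbers give the mouse and bars the mean and SD. In the panels of Egr2, Socs3, Cebpd, Myc, Klf2 and Ier2 the OVE26 3 and OVE26 4 points are the highest, and in the Nr4a1 and Fosl2 panels the FVB points lie mostly above.

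Fos and Jun proteins pair to form AP-1. Fos read 11.20, 11.12, 11.72, 12.02 and 11.60 on OVE26 arrays 1 to 5, and 11.17, 10.94, 11.33 and 10.58 on FVB arrays 1 to 4. OVE26 3, 4 and 5 lay above all FVB arrays and FVB 4 was the lowest of the 9. The difference was 0.53 (95% interval 0.05 to 1.00; adjusted p = 0.286). Fosb, which makes a partner of Jun with a longer-lived splice form, differed by 0.91 (adjusted p = 0.338), with 9.97 ± 0.66 (SD, n = 5) on OVE26 arrays against 9.06 ± 0.80 (SD, n = 4) on FVB arrays. Fosl1 differed by -0.02 (adjusted p = 0.972).

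Fosl2, a Fos relative that many resting cells keep at a steady level, ran the other way. It read 11.01, 11.43, 11.16, 11.63 and 11.22 on OVE26 arrays 1 to 5, and 11.75, 11.65, 11.69 and 12.04 on FVB arrays 1 to 4. No OVE26 array reached the FVB range. The difference was -0.49 (95% interval -0.82 to -0.17; adjusted p = 0.149), and the second probe set differed by -0.61.

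Jun was among the members with small differences. It read 12.13, 12.01, 12.24, 12.44 and 12.09 on OVE26 arrays 1 to 5, and 12.14, 12.07, 12.26 and 11.83 on FVB arrays 1 to 4. The groups overlapped over most of their range, and the difference was 0.11 (95% interval -0.17 to 0.39; adjusted p = 0.756); its second probe set differed by -0.09. Jund, the Jun gene that is expressed without stimulation, was at 11.85 ± 0.09 (SD, n = 5) and 11.87 ± 0.07 (SD, n = 4). Junb, an early Jun gene, differed by 0.58 (adjusted p = 0.427).

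Atf3 is a stress-induced repressor that pairs with Jun. It read 9.95, 9.77, 11.08, 11.79 and 11.002 on OVE26 arrays 1 to 5, and 9.67, 9.84, 9.95 and 9.89 on FVB arrays 1 to 4. The FVB arrays spread by an SD of 0.12 and the OVE26 arrays by 0.84, with OVE26 3, 4 and 5 above and OVE26 1 and 2 within the FVB range. The difference was 0.88 (95% interval 0.05 to 1.70; adjusted p = 0.300). Maff, a small Maf protein without an activation domain, read 9.40, 9.67, 10.39, 10.84 and 9.94 on OVE26 arrays 1 to 5, and 8.78, 8.63, 9.65 and 9.51 on FVB arrays 1 to 4. OVE26 1 lay below FVB 3 and FVB 4 and the other OVE26 arrays lay above all FVB arrays, for a difference of 0.91 (adjusted p = 0.210).

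Myc, Cebpd and Klf2 are the other members whose OVE26 arrays all lay above the FVB arrays. Myc, the growth-promoting factor, read 5.22, 4.90, 6.51, 7.15 and 5.88 on OVE26 arrays 1 to 5, and 4.37, 4.68, 3.69 and 4.46 on FVB arrays 1 to 4. OVE26 3 and 4 were the highest and OVE26 2 lay nearest to the FVB arrays. Its difference was 1.63 (95% interval 0.67 to 2.59, 3.10-fold; adjusted p = 0.117), and it passed with array weights (adjusted p = 0.0465).

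Cebpd is an acute-phase factor induced by cytokines and glucocorticoid. It read 6.94, 7.14, 8.43, 9.32 and 7.31 on OVE26 arrays 1 to 5, and 6.32, 6.38, 6.54 and 6.28 on FVB arrays 1 to 4. The FVB arrays were within an SD of 0.11, and the OVE26 arrays spread by an SD of 1.02. The difference was 1.45 (95% interval 0.46 to 2.43; adjusted p = 0.160), and the second probe set differed by 1.70. Its relative Cebpb differed by 0.33 (adjusted p = 0.709).

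Klf2 is a shear-responsive factor of endothelium that is also an early gene. It read 7.56, 7.56, 8.61, 9.20 and 8.12 on OVE26 arrays 1 to 5, and 7.47, 7.24, 7.36 and 7.17 on FVB arrays 1 to 4. OVE26 1 and 2 lay just above the FVB arrays, and the difference was 0.90 (SE 0.31; adjusted p = 0.210). Klf4, which podocytes are known to express, differed by 0.62 (adjusted p = 0.341) and its second probe set by 0.73. Klf6 differed by 0.13 (adjusted p = 0.835), with 4 other probe sets of the same sign.

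The feedback genes encode proteins that end the response. Socs3, which blocks JAK kinases after a cytokine signal, read 8.66, 8.19, 10.18, 10.74 and 9.49 on OVE26 arrays 1 to 5, and 7.83, 8.53, 8.15 and 7.08 on FVB arrays 1 to 4. All OVE26 arrays except OVE26 2 lay above the FVB arrays. The difference was 1.55 (95% interval 0.42 to 2.69, 2.94-fold; adjusted p = 0.185), and the 2 other probe sets differed by 1.58 and 1.81.

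Zfp36 encodes tristetraprolin, which speeds the decay of cytokine messages and of early gene messages. It read 10.98, 10.67, 11.54, 11.94 and 11.12 on OVE26 arrays 1 to 5, and 10.87, 10.78, 10.74 and 9.91 on FVB arrays 1 to 4. The OVE26 arrays apart from OVE26 2 were above all FVB arrays, and FVB 4 lay well below the other FVB arrays. The difference was 0.67 (95% interval 0.05 to 1.30; adjusted p = 0.293).

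The Dusp genes encode phosphatases that inactivate MAP kinases in the nucleus or cytoplasm. Dusp1 read 11.47, 11.32, 11.89, 12.23 and 11.68 on OVE26 arrays 1 to 5, and 11.53, 11.42, 11.50 and 10.99 on FVB arrays 1 to 4. OVE26 3, 4 and 5 were above the FVB arrays and OVE26 1 and 2 within them, for a difference of 0.36 (95% interval -0.08 to 0.79; adjusted p = 0.430). Dusp5, an ERK phosphatase, read 5.99, 5.68, 6.46, 7.72 and 6.17 on OVE26 arrays 1 to 5, and 5.07, 6.01, 5.59 and 5.44 on FVB arrays 1 to 4. OVE26 3, 4 and 5 lay above the FVB arrays, and the difference was 0.88 (adjusted p = 0.305). Dusp6, a cytoplasmic ERK phosphatase, differed by 0.02 (adjusted p = 0.985), and Dusp2, which lay below the filter on dim genes, by -0.18 (adjusted p = 0.685).

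The remaining members are small early response proteins and growth brakes. Ier2 read 6.43, 6.76, 7.29, 7.86 and 7.01 on OVE26 arrays 1 to 5, and 5.98, 5.86, 6.67 and 5.73 on FVB arrays 1 to 4. OVE26 1 lay below FVB 3 alone, and the difference was 1.01 (95% interval 0.36 to 1.66; adjusted p = 0.141). Ier3, which protects cells from death signals, read 10.15, 10.54, 10.41, 10.45 and 10.39 on OVE26 arrays 1 to 5, and 10.02, 10.18, 10.06 and 9.94 on FVB arrays 1 to 4. Its OVE26 arrays were close together (SD 0.15), with OVE26 1 alone below FVB 2, and the difference was 0.34 (adjusted p = 0.175).

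Gadd45b, a stress sensor that binds p38 and JNK pathway kinases, was lower in mean. It was at 9.24 ± 0.31 (SD, n = 5) on OVE26 arrays against 9.75 ± 0.29 (SD, n = 4) on FVB arrays, a difference of -0.51 (adjusted p = 0.230), with 2 other probe sets at -0.71 and -0.50. OVE26 4 was the exception among the OVE26 arrays, at 9.73 against an FVB range of 9.54 to 10.17. Btg1 and Btg2, antiproliferative genes, differed by 0.31 (adjusted p = 0.430) and 0.02 (adjusted p = 0.986). Rhob differed by 0.34 (adjusted p = 0.459), and Ier5 by 0.47 (adjusted p = 0.650), with 2 dimmer probe sets of the opposite sign.

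By role, all 6 of the Klf, Myc and Cebp factors and 6 of 9 AP-1 and small Maf genes had the higher mean in OVE26. Of the Egr and Nr4a factors 3 of 6 did, and of the phosphatases 3 of 4. Over all genes the share with the higher mean in OVE26 was 52.6%. The directions of Nr4a2, Dusp6 and Btg2 turned with arrays centred on their medians or on ribosomal protein genes, and Jun turned with the latter; the other 30 kept their direction under both. Of the 17 members with more than 1 probe set, 11 had all other probe sets on the same side as the one used.

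**Figure D3:**
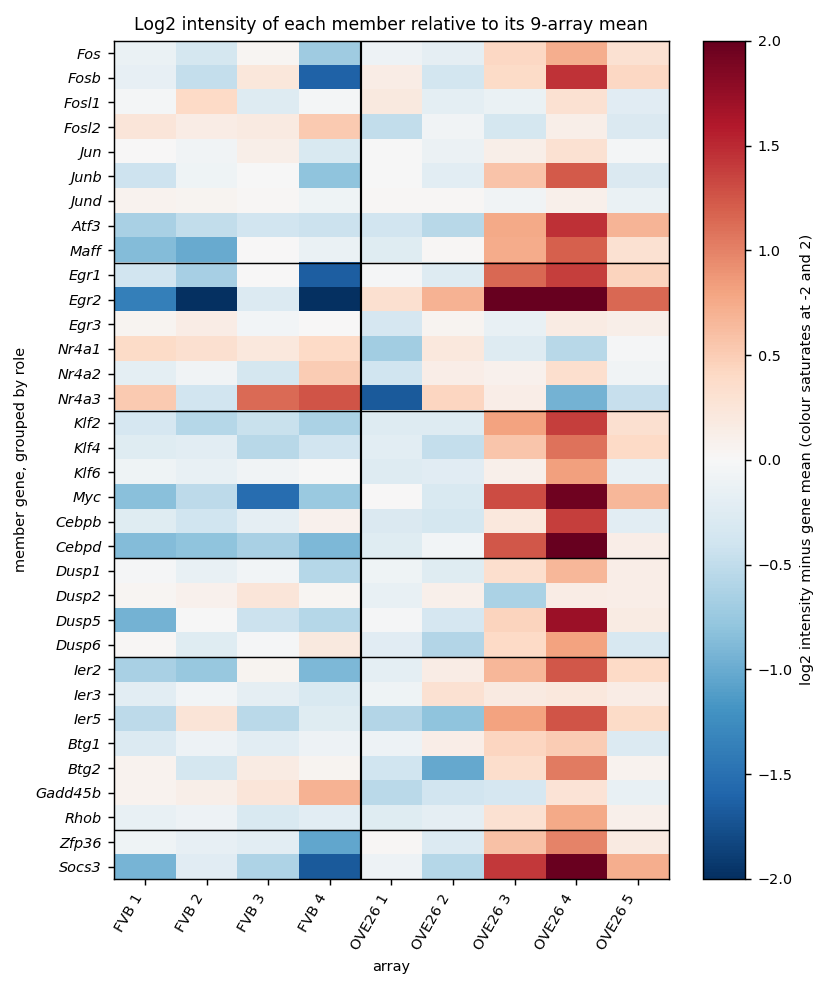
Log2 intensity of each member (rows, grouped by role) on each array (columns), relative to the gene's mean over the 9 arrays; red is above and blue below that mean. The OVE26 4 column is red in most rows and the OVE26 3 column in many, and the OVE26 1 and OVE26 2 columns are pale or blue.

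The members differed more between OVE26 mice than between FVB mice. The SD was larger among OVE26 than among FVB arrays in 29 of 34 members, against 66.5% of all genes. Median SDs were 0.56 and 0.24 over the members, against 0.25 and 0.19 over all genes. Among the OVE26 arrays alone, OVE26 4 was the highest for 31 of the 34 members, against 20.1% of all genes. OVE26 4 was the highest of the 9 arrays for 26 members, where it was the highest for 14.4% of all genes. The median deviation of the members from their own 9-array means was 0.91 on OVE26 4, 0.39 on OVE26 3 and 0.13 on OVE26 5, and -0.20 and -0.21 on OVE26 1 and 2. The FVB arrays were at -0.18, -0.16, -0.06 and -0.27. OVE26 1 and 2 were thus within the FVB range by this measure. The median deviation of all genes lay between -0.03 and 0.04 on every array.

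The members were next compared with Fos across arrays after each group's mean was subtracted, which asks whether mice of 1 group that were high in Fos were high in the others. Over 33 members, r with Fos was above 0 for 30, with a median of 0.65, against -0.06 over all other genes. It passed for 12 members (exact permutation of arrays within groups, 2-sided, 2880 orders, adjusted over 33). An r above 0.8 was found for 9 members, against 0.577% of all other genes. The permutation test was not run over all genes. The genes of a pair share arrays, sorts and amplifications, and these were not separated.

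Egr1 followed Fos most closely of the members (Pearson's r = 0.975, exact permutation p = 0.000347, the smallest that 2880 orders can give, adjusted p = 0.00764; Spearman's rho = 0.983, exact permutation p = 0.000347). Dusp1 (r = 0.961; rho = 0.900), Fosb (r = 0.938; rho = 0.883) and Egr2 (r = 0.931; rho = 0.933) came next, with adjusted exact permutation p of 0.00764, 0.00764 and 0.0131 for r and 0.0262, 0.0183 and 0.0183 for rho. The other 8 were Jun, Zfp36, Ier2, Socs3, Klf2, Btg2, Atf3 and Cebpd. Their r ran from 0.920 for Jun to 0.769 for Cebpd, and rho passed in all of them except Atf3 (rho = 0.700, adjusted exact permutation p = 0.130). Without the 2 arrays farthest from the median of Fos, FVB 4 and OVE26 2, r of the 12 stayed between 0.760 and 0.965. Without any 1 array it was at least 0.624, reached by Cebpd without OVE26 4.

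The rest of the 33 did not pass, among them Junb (r = 0.792), Klf4 (r = 0.741) and Rhob (r = 0.729). The Nr4a genes, Fosl2 and Gadd45b did not pass either. Nr4a1 had r = -0.335 (rho = -0.467, adjusted exact permutation p = 0.611 for r), Nr4a2 -0.127 and Nr4a3 -0.0723, Fosl2 0.0680 and Gadd45b 0.243. These values moved strongly with the arrays used. Without FVB 4 and OVE26 2, Fosl2 was at 0.824, Gadd45b at 0.762, Nr4a2 at 0.629, Nr4a3 at 0.622 and Nr4a1 at 0.154. Jun, which barely differed between groups, followed Fos within them (r = 0.920, rho = 0.933, adjusted exact permutation p = 0.0115 for r).

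**Figure D4:**
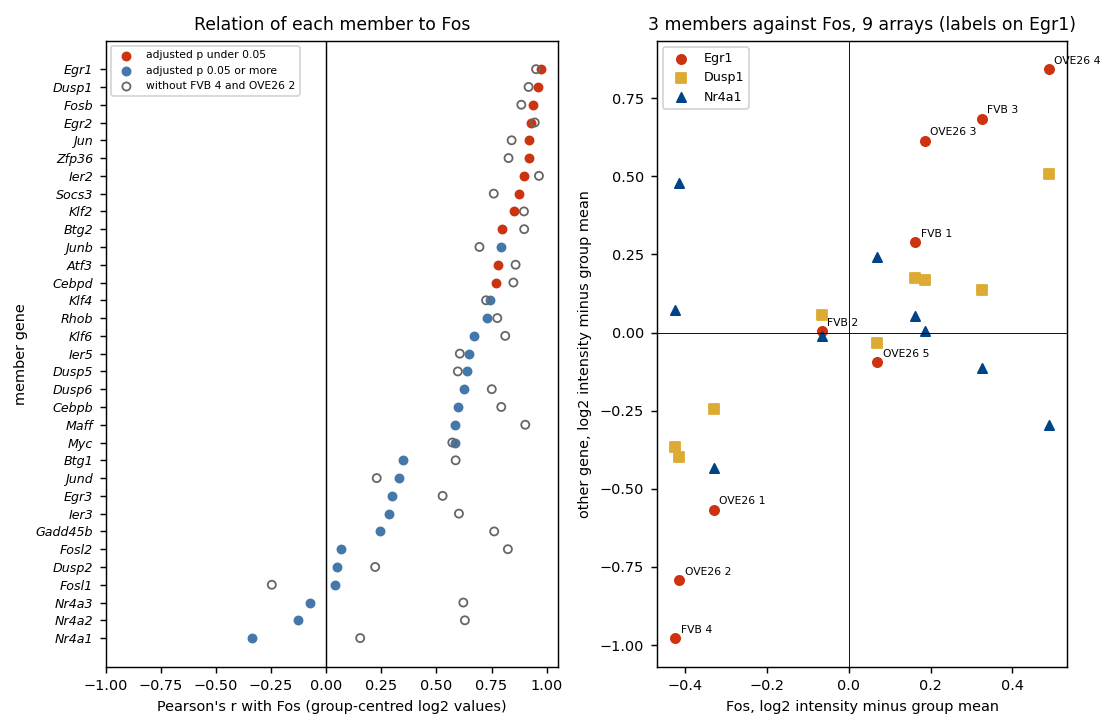
Left, Pearson's r of each member with Fos (x axis) over 9 arrays after subtraction of group means, with red for adjusted p under 0.05 and open circles for r without FVB 4 and OVE26 2. Right, group-centred log2 intensity of Egr1, Dusp1 and Nr4a1 against that of Fos, where Egr1 and Dusp1 climb with Fos (r = 0.975 and 0.961) and Nr4a1 does not (r = -0.335). Without FVB 4 and OVE26 2, r of Nr4a1 was 0.154.

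Other genes of the same pathways came from 4 lists, and 94 of their 109 listed genes were measured. None reached an adjusted p under 0.05 by limma, where 0.605% of all genes were called. At an unadjusted p under 0.05, 20 were higher (9.03% of all genes) and 7 lower (6.07% of all genes). Of 21 genes of the MAP kinase cascade and its transcription factors 0 passed (0.605% of all genes), with a median difference of -0.11. Crem, which makes CREB-like activators and repressors, differed by 0.54 (adjusted p = 0.229), the kinase Araf by -0.30 (adjusted p = 0.297) and the p38 effector Mapkapk2 by -0.32 (adjusted p = 0.306).

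Of 17 further AP-1 partners, phosphatases and Sprouty family inhibitors 0 passed (0.605% of all genes), with a median of -0.08. Dusp8, a JNK and p38 phosphatase, was at 7.24 ± 0.42 (SD, n = 5) on OVE26 arrays against 8.44 ± 0.30 (SD, n = 4) on FVB arrays, a difference of -1.20 (adjusted p = 0.0516) without overlap of the groups. Jdp2, a repressor of AP-1, differed by -0.60 (adjusted p = 0.0805), also without overlap, and Dusp14 by -0.51 (adjusted p = 0.208). Groups without overlap were found in 6.26% of all genes. Jdp2 passed with array weights and without FVB 2. Dusp8 passed with dim genes left out, with an intensity trend and robust variance, with array weights, with quantile normalization, with the sex covariate and with either centring.

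Of 42 other early response genes 0 passed (0.605% of all genes), with a median difference of 0.35. At an unadjusted p under 0.05, 14 were higher (9.03% of all genes) and 2 lower (6.07% of all genes). Cxcl1, a neutrophil chemokine, was at 11.40 ± 0.72 (SD, n = 5) on OVE26 arrays against 9.63 ± 0.43 (SD, n = 4) on FVB arrays, a difference of 1.77 (adjusted p = 0.0573), and Ptgs2, the inducible cyclooxygenase, differed by 2.17 (adjusted p = 0.0784). Gadd45a, a p53 and stress target, differed by -0.67 (adjusted p = 0.0532), the same sign as Gadd45b. The groups did not overlap in these 3 genes. Gadd45a and Cxcl1 passed with array weights, with dim genes left out, with an intensity trend and robust variance and with the mean of probe sets. Gadd45a also passed with centring on ribosomal protein genes and without FVB 2, Cxcl1 without OVE26 2, and Ptgs2 with array weights alone. Over the whole list every OVE26 array lay above every FVB array for 6 genes (3.64% of all genes). Every OVE26 array lay below for 1 (2.62% of all genes).

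Of 14 heat shock genes that dissociation is known to induce 0 passed (0.605% of all genes), and 12 had the higher mean in OVE26 (52.6% of all genes). At an unadjusted p under 0.05, 5 were higher (9.03% of all genes) and 0 lower (6.07% of all genes). The median difference was 0.22. Dnajb1, an HSP40 co-chaperone, was at 11.63 ± 0.26 (SD, n = 5) on OVE26 arrays against 11.12 ± 0.13 (SD, n = 4) on FVB arrays (adjusted p = 0.141). Hspa5, the endoplasmic reticulum chaperone BiP, differed by 0.28 (adjusted p = 0.175) and the small heat shock gene Hspb1 by 1.07 (adjusted p = 0.194).

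Of 6 marker scores of other cell types, 2 differed between the groups after adjustment, those of parietal epithelium and of loop, distal tubule and collecting duct. The macrophage score, over 19 genes, was 0.33 ± 0.47 (SD, n = 5) on OVE26 arrays against -0.41 ± 0.17 (SD, n = 4) on FVB arrays, with a 2-sided exact permutation p of 0.0317 and 0.0556 after adjustment over 7 scores. Of its genes 16 had a higher mean in OVE26 (52.6% of all genes) and 0 passed by limma (0.605% of all genes). In both groups 4 were below the 25th percentile. Adgre1 was at 3.15 and 2.54, Cd68 at 4.32 and 4.06, C1qb at 5.29 and 2.99 and Lyz2 at 7.79 and 6.37 in OVE26 and FVB arrays. Csf1r and Mrc1, the macrophage markers brightest on FVB arrays, did not share that direction or size. Csf1r was at 8.35 and 8.32, and Mrc1, at 6.75 and 8.10, had the lower mean in OVE26, as did Itgam and Cx3cr1. Laptm5, the next brightest on FVB arrays, was at 7.719 and 6.595. Ctss had the largest difference of the list, at 7.86 and 5.24 (limma, adjusted p = 0.0711). The highest array of the score was OVE26 3 at 0.95, with OVE26 4 at 0.45 and OVE26 2 at -0.34, inside the FVB range of -0.59 to -0.21.

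With the macrophage score in the model, 1 member was left at an unadjusted p under 0.05 (14.5% of all genes), the members' median difference was 0.03 and their standard errors had a median 1.45 times as large. Egr2 then differed by 2.64 and Atf3 by 0.03. With the score of loop, distal tubule and collecting duct in the model 14 members were left (8.56% of all genes) and the median was 0.72. Standard errors of the members then had a median 1.7 times as large, and no member passed by limma in either fit. The score of loop, distal tubule and collecting duct was itself higher on OVE26 arrays by 1.33, and that of parietal epithelium by 1.04. Each had an exact permutation p of 0.00794 (0.0278 adjusted). For podocyte markers the OVE26 score was lower in mean, at -0.35, where the exact permutation test gave 0.0317 (0.0556 adjusted). The proximal tubule score differed by -0.13, the glomerular endothelial score by -0.07 and the mesangial and smooth muscle score by 0.19, with exact permutation p of 0.984, 0.778 and 0.365. The score of loop, distal tubule and collecting duct ran from 0.209 to 1.55 on OVE26 arrays and from -1.4 to -0.089 on FVB arrays. On the macrophage score OVE26 2 alone lay inside the FVB range. The 2 fits above therefore cannot tell a score from the group, and the part of the scores in the members' values was not tested.

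Within groups, none of the 7 scores was related to Fos past the threshold, a comparison added after the values were seen. Its r was 0.420 with the macrophage score (rho = 0.250), -0.495 with the podocyte score (rho = -0.333) and -0.531 with that of loop, distal tubule and collecting duct (rho = -0.550), and the adjusted exact permutation p was 0.475 for r in each of these. Without FVB 4 and OVE26 2 the 3 values were 0.154, -0.608 and -0.245.

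**Figure D5:**
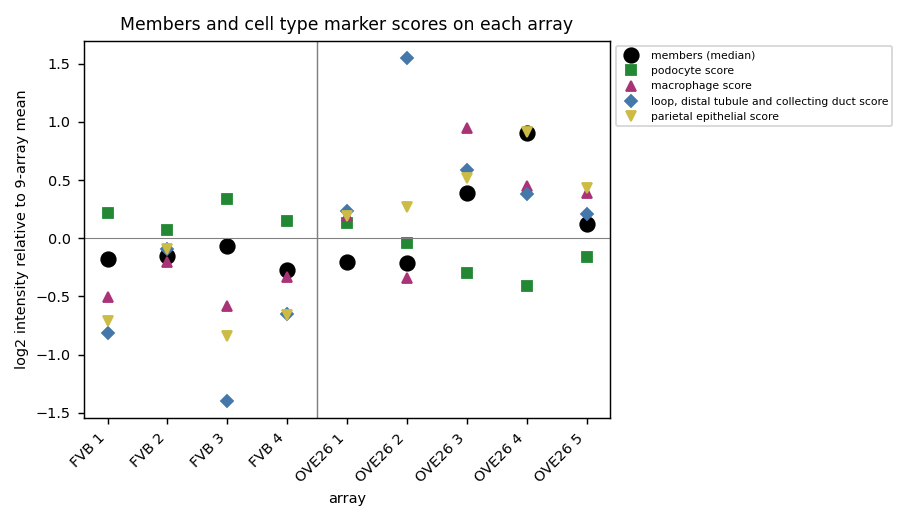
Median deviation of the 34 members (black) and scores of 4 cell type marker lists (colours) on each array, as log2 intensity relative to the 9-array mean. OVE26 4 has the highest member median (0.91) and the highest parietal score, OVE26 3 the highest macrophage score (0.95), and OVE26 2 the highest score of loop, distal tubule and collecting duct (1.55).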

How the data were processed

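Gene expression was measured on 1 array per mouse, for 5 OVE26 and 4 FVB mice, from amplified, biotin-labelled RNA of sorted podocytes, per the labels' protocols. The authors deposited 1 linear intensity per probe set and array, made with RMA and Partek per the submitters' processing notes; the sources used here give neither version nor settings. Log2 of the deposited values was taken. Of 45101 probe sets 64 controls were left out, 34945 had 1 symbol in the platform annotation, 932 several and 9160 none. For each gene the brightest probe set by mean over all 9 arrays was used (18193 genes). RMA gives no detection call, and the number of arrays limits the precision; differences had a median standard error of 0.156.

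Groups were compared by lmFit and eBayes of limma 3.58.1, run under R 4.3.3 (2-sided, Benjamini-Hochberg over 18193 genes, threshold 0.05), after a test on simulated data. Relations and scores used exact permutation (scipy 1.17.1). The members and lists were chosen with earlier results of these data known. Values by array are given for members past the threshold, members whose groups do not overlap, the 2 members of smallest p in each role group, and for Fos, Jun, Egr1, Atf3, Dusp1 and Socs3; pathway lists are named by their 3 smallest p. Members were chosen by name and no filter on low values was applied. The alternatives were another choice of probe sets, a filter on dim genes, 3 scalings, 2 variance models, the replicate number as a block, 3 covariates (Xist minus Y-linked genes for sex, and 2 marker scores), each array left out, and other thresholds. Labels name the arrays as separate mice, so p-values rest on the spread between mice, sorts and amplifications together.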

Additional observations from a re-analysis of the deposited data

Results flagged for a closer look

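Among 68 sets of arrays (34 members in each group), 1 held an array far from the rest of its group: Zfp36 on FVB 4 was at 9.91, against 10.74 to 10.87 on the other FVB arrays, a gap of 0.869 of the group's range. Chance alone marks about 1 in 20 such sets. FVB 4 was also the lowest of the 9 arrays for 13 of the 34 members, including Fos, Egr1 and Socs3, where it was the lowest for 8.44% of all genes. That array was the highest of the 9 for 5 members (Fosl2, Nr4a1, Nr4a2, Nr4a3 and Gadd45b), against 7.71% of all genes. Without it, 11 members in place of 17 had an unadjusted p under 0.05, while the share of all genes went from 15.1% to 12.4%. Of those members 9 were higher and 2 lower, in place of 13 and 4.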

How the results depend on the processing

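No member passed when any 1 array was left out, and members' median difference then ran from 0.222 to 0.456. Over those fits 8 to 285 genes of all tested were higher and 0 to 82 lower, and 0 to 2 pathway genes were higher and 0 to 2 lower; the 0 lower without FVB 3 came with 2155 genes at an unadjusted p under 0.05 by limma. With array weights 284 genes were higher and 112 lower, with 2 members higher (Egr2 and Myc) and 6 pathway genes higher and 3 lower. With dim genes left out 38 genes were lower, with 1 member (Egr2) and 1 pathway gene higher and 2 pathway genes lower, and with an intensity trend and robust variance 51 were lower, with 1 member (Egr2) and 1 pathway gene higher and 2 pathway genes lower. Centring on medians gave 52 lower genes and 1 lower pathway gene; centring on ribosomal protein genes gave 56 higher and 42 lower genes and 2 lower pathway genes. Quantile normalization gave 1 lower pathway gene, and the mean of probe sets 1 higher and 1 lower. The sex covariate gave 33 higher and 8 lower genes and 1 lower pathway gene. The distal score gave 0 and 0 (1558 at an unadjusted p under 0.05 by limma) and the macrophage score 0 higher and 2 lower genes. At an adjusted p under 0.1, 267 genes were higher and 108 lower, with 1 member higher and 3 pathway genes each way, and at 0.01, 14 and 1. The replicate numbers did not pair the arrays (r of deviations from -0.21 to 0.13 between same-numbered arrays); with the replicate block, which leaves OVE26 5 without a partner, 19 genes were higher and 0 lower (limma, 2339 at an unadjusted p under 0.05), with 0 members called.

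Changes of sign were limited to differences that passed nowhere. Nr4a2 turned to -0.0486 with array weights, -0.0563 with median centring, -0.0703 with ribosomal centring, -0.252 with the distal score, -0.0884 with the macrophage score, -0.107 with the mean of probe sets and -0.0271 with quantile normalization. Dusp6 turned to -0.0702, -0.0789, -0.0928, -0.533 and -0.0105 with array weights, median centring, ribosomal centring, the macrophage score and quantile normalization, and Btg2 to -0.00133, -0.0751, -0.089 and -0.735 with the first 4 of these. Jun turned to -0.00329 with ribosomal centring. With the mean of probe sets Fosl1, Jund and Egr3 turned to 0.0824, 0.0756 and 0.307, and with the replicate block Fosl1 and Jund to 0.0299 and 0.00825. With the macrophage score Jund, Klf4, Klf6, Cebpb, Dusp2, Ier5 and Rhob turned to 0.0212, -0.0729, -0.124, -0.0927, 0.166, -0.656 and -0.0273. The cause was not tested. Without single arrays Btg2 ran from -0.232 to 0.281, Dusp6 from -0.178 to 0.171, Egr3 from -0.117 to 0.00757, Fosl1 from -0.117 to 0.106, Jund from -0.0575 to 0.00825, Klf6 from -0.0589 to 0.212 and Nr4a2 from -0.0658 to 0.223. The median r with Fos was 0.767 without subtraction of group means, 0.762 without FVB 4 and OVE26 2 and 0.658 after quantile normalization.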
